A study of Homo sapiens with 15 samples.

Results

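The genes described here are 7 chemokines that attract monocytes and lymphocytes: CCL2, CCL5, CCL20, CXCL10, CXCL11, CXCL16 and CX3CL1. They were taken by name from a table of 23368 genes, and all 7 have a row in it. The study asked which transcripts change when the RNA-binding protein RBM47 is switched on by doxycycline in metastatic breast cancer cells, and RNA was sequenced in 15 libraries. Each library is 1 of 3 clones (WT6, WT10 and MUT3) at 1 of 5 doxycycline concentrations (0, 1, 2.5, 5 and 25 ng/ml), with no second library of any condition. WT6 and WT10 carry the wild type RBM47 transgene and MUT3 carries the RBM47-I281fs mutant, each FLAG-tagged behind a doxycycline-responsive promoter, so the untreated libraries hold the transgene too. Every clone grew from a single cell, and a difference between clones therefore compares 1 cell line with another. The labels name MDA231, a triple negative breast cancer line, for all 3 clones. The study's methods instead derive WT6 from the CN34-BrM2 line and WT10 and MUT3 from 231-BrM2, both selected for growth in the brain. By these methods WT10 and MUT3 share a line and differ in clone and transgene. WT6 and WT10 share the transgene and differ in clone and line. An effect of the clone therefore cannot be told apart from one of the parental line or of the transgene.

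Chemokines are small secreted proteins that set up gradients and steer white blood cells through G protein-coupled receptors. Inflammatory signals such as IL-1, TNF and interferon switch most of them on, often through NF-kB, and many of their transcripts are short-lived. CCL2 recruits monocytes through CCR2, CCL5 recruits T cells and monocytes, and CCL20 is the ligand of CCR6 on dendritic cells and Th17 cells. CXCL10 and CXCL11 are interferon-induced ligands of CXCR3 on activated T cells. CXCL16 and CX3CL1 (fractalkine) differ from the others in being made as membrane proteins, which hold cells bearing CXCR6 or CX3CR1 until the metalloproteases ADAM10 and ADAM17 cut them free.

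The family names of the 7 genes come from the spacing of the first cysteines, which the coding sequences below show, since the same letters separate the genes by receptor class. They are read from the GENCODE release 44 transcripts on hg19, 5′ to 3′, with the codons of the first pair of cysteines in capitals.
CCL2: ccagtcaccTGCTGTtataacttc
CCL5: accacacccTGCTGCtttgcctac
CCL20: aactttgacTGCTGTcttggatac
CXCL10: actgtacgcTGTaccTGCatcagcatt
CXCL11: agaggacgcTGTcttTGCataggccct
CXCL16: actggaagtTGTtatTGTggtaaaaga
CX3CL1: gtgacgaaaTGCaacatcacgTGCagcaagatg
The 3 CC chemokines had 0 codons between the capitals, the 3 CXC chemokines had 1 and CX3CL1 had 3.

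Levels are given as normalized counts, in which the reads of each library are scaled by 1 size factor. Between 14955172 and 44771871 reads lay on genes in a library, and 3 reads, the floor under which a gene is called undetected, were worth 1.19 to 4.09 normalized counts. A gene was called too low to judge in a clone where its mean normalized count was under 10. RBM47 rose from 258 to 10425 normalized counts in WT6 cells, from 168 to 19877 in WT10 cells and from 73.8 to 22084 in MUT3 cells between 0 and 25 ng/ml. The rise was not even in WT6 cells, where RBM47 fell from 8094 to 3966 normalized counts between 2.5 and 5 ng/ml. Nor was it even in MUT3 cells, which had 92.1, 336 and 949 at 1, 2.5 and 5 ng/ml. WT10 cells had 8134 at 5 ng/ml, so slopes on the dose compare unlike RBM47 levels between clones. In the WT6 libraries at 5 and 25 ng/ml, changes followed transcript length: genes with short transcripts (the fifth up to 1748 nt) had median log2 changes against untreated of 0.61 and 0.59, and those with long transcripts (the fifth from 5776 nt) had -0.41 and -0.44. In the other libraries these medians lay between -0.07 and 0.07. All 7 markers listed for basal or mesenchymal lines had means of at least 10 in every clone. They were VIM, CD44, FN1, EGFR, CAV1 and the keratins KRT8 and KRT18. Of 6 luminal breast markers, 3 also did, GATA3, KRT19 and EPCAM. PGR did in WT10 cells only (18.0), and ESR1 and CDH1 had means under 10 in every clone. These lists therefore do not assign a subtype to the clones. Of 12 leukocyte markers, CD3E and MS4A1 had 0 reads in all libraries, while CD68 and CD14, which are not specific to leukocytes, passed a mean of 10 in every clone and CSF1R in WT6 and WT10 cells (11.97 and 19.8). The pan-leukocyte marker PTPRC had means of 4.88, 0.615 and 0 in WT6, WT10 and MUT3 cells, and CD3D of 3.61, 0 and 0. The summed leukocyte list lay between 2148 and 2942 in WT6, 3208 and 5357 in WT10, and 3250 and 3607 in MUT3 cells, and its part in the results was not tested.

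Most of these chemokines were barely detected. Of the 105 values (7 genes in 15 libraries), 68 rested on 3 reads or fewer and 38 on 0 reads. CCL2, CCL5, CXCL10, CXCL11 and CX3CL1 were too low to judge in every clone. CXCL16 could be judged in all 3 clones, and CCL20 in WT6 cells only. The 7 genes together took 3016 reads in WT6, 632 in WT10 and 319 in MUT3 cells, and 2612 of the WT6 reads were on CCL20.

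**Figure D1:**
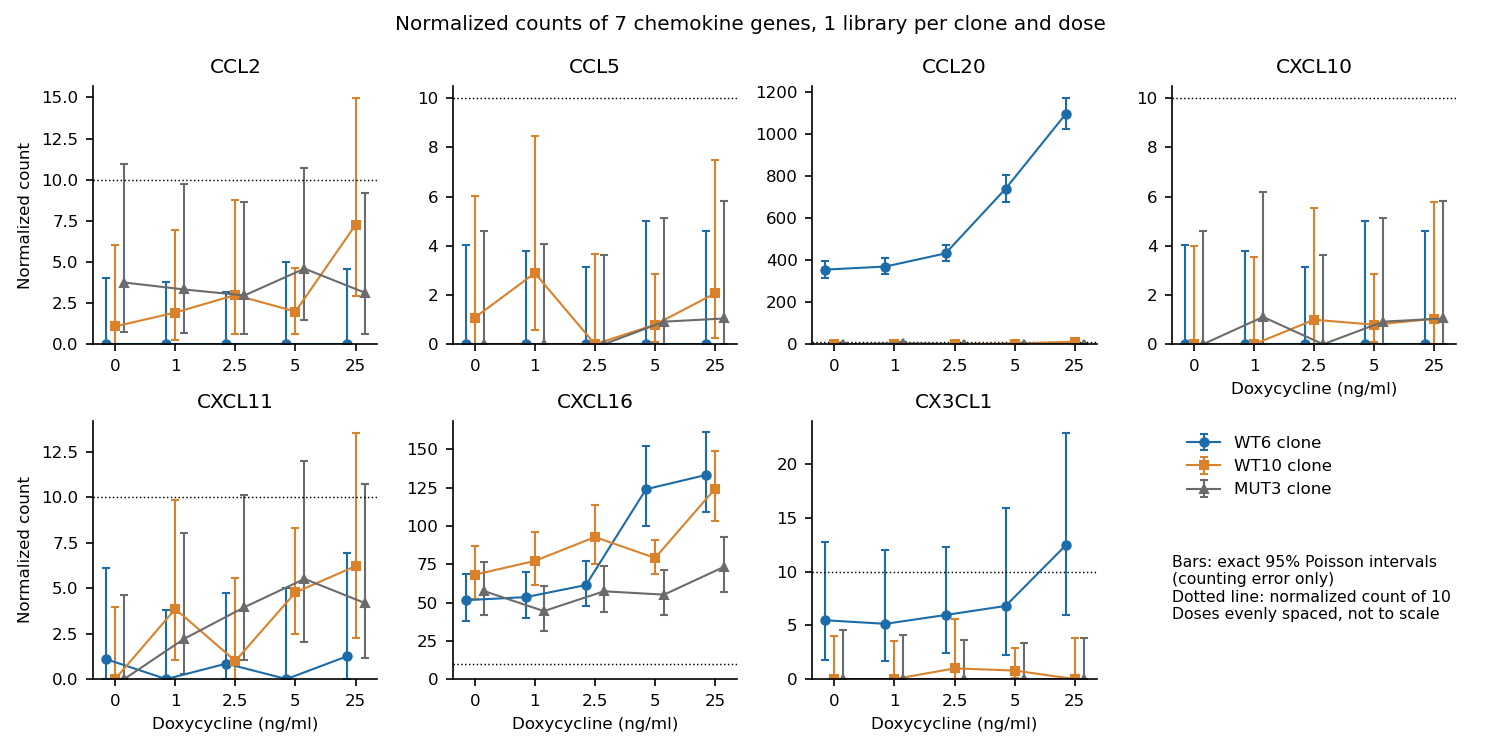
Normalized count of each gene (vertical axes, linear and different for each gene) at the 5 doxycycline doses (horizontal axes, evenly spaced) in WT6 (circles), WT10 (squares) and MUT3 (triangles) cells, 1 library per point, with exact 95% Poisson intervals. CCL20 rises from 355 to 1095 in WT6 cells and lies near 0 in the other clones, CXCL16 lies between 44.4 and 133 in all 3, and CX3CL1 is the only other gene with a value above the dotted line at 10.

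CCL20 was the most abundant of the 7 genes and rose with the dose in WT6 cells. Its gene lies at chr2:228670455-228682280 on the plus strand of hg19, with no other annotated gene over it. In WT6 cells it had 355, 369.5, 432, 739.8 and 1095 normalized counts at 0, 1, 2.5, 5 and 25 ng/ml. Each dose was above the one before it, and the exact 95% intervals for counting error of the libraries at 5 and 25 ng/ml overlapped neither each other nor those at the lower doses. At the 4 doses in turn, the ratio to untreated was 1.04 (95% interval 0.893 to 1.21), 1.22 (1.06 to 1.40), 2.08 (1.81 to 2.40) and 3.08 (2.71 to 3.51). These intervals cover counting error only, since no condition was repeated.

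The change with dose was tested by limma as a slope, the change of log2(normalized count + 1) per unit of log2(dose + 1). Across the 13637 genes with a mean of at least 10 over all libraries, CCL20 had a slope of 0.39 ± 0.050 (SE) in WT6 cells, with an adjusted p of 2.93e-05 (limma, Benjamini-Hochberg). CCL20 joined these genes through its WT6 counts alone. The estimate of its spread also draws on WT10 and MUT3 cells, where it was too low to judge. In that fit 55.4% of all genes tested had a slope in WT6 cells and 28.7% rose, so a rise was common there. With WT6 fitted alone the CCL20 slope was 0.38, with an adjusted p of 0.00412 by limma, where 31.3% of genes were called. CCL20 has one of the shorter transcripts, 834 nt, and only 4.76% of genes were shorter. After removal of length and GC trends its slope was 0.25 ± 0.042, with an adjusted p of 0.000135 by limma, where 56.3% of genes were called.

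The CCL20 rise rested on the upper doses of WT6. Without the WT6 libraries at 5 and 25 ng/ml the slope was 0.15, with an adjusted p of 0.476 by limma over the 3 libraries left, and 1.25% of genes were called. The slope also missed the threshold without precision weights, where it was 0.38 with an adjusted p of 0.138 by limma, and on the log2 RBM47 count in place of the dose, where it was 0.21 with 0.233. From 2.5 to 5 ng/ml CCL20 rose 1.71-fold (95% interval 1.51 to 1.94) while RBM47 fell to a ratio of 0.490 (0.470 to 0.511).

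CCL20 was close to absent in the other clones. WT10 cells had 1, 0, 1, 7 and 12 reads from 0 to 25 ng/ml, or 1.08, 0, 0.997, 2.78 and 12.4 normalized counts. MUT3 cells had 0, 4, 0, 2 and 1 reads at the same doses, or 0, 4.44, 0, 1.84 and 1.05 normalized counts. Both the 5 and 25 ng/ml libraries of WT10 were above the floor of 3 reads, as was 1 library of MUT3. Over the 5 libraries of a clone, CCL20 took 275 reads per 10M reads on genes in WT6 (95% Poisson interval 264 to 285), 1.81 in WT10 (1.12 to 2.76) and 0.782 in MUT3 (0.314 to 1.61). WT6 was thus 152-fold above WT10 (99.2 to 246) and 351-fold above MUT3 (170 to 875), by counting error alone.

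In WT10 cells the limma slope of CCL20 was 0.73 ± 0.21 (SE), with an adjusted p of 0.0231, in a fit where 19.9% of genes were called. CCL20 entered this fit through its WT6 counts alone. The WT10 mean of 3.46 normalized counts puts this slope among those too low to judge. The call was lost without the WT10 library at 25 ng/ml, where the slope was 0.38 with an adjusted p of 0.763 by limma, and without the one at 1 ng/ml, where it was 0.64 with 0.0734. In MUT3 cells the slope was 0.09, with an adjusted p of 1 by limma, where 0.0147% of genes were called. The differences in slope did not pass and rest on the 21 and 7 reads of WT10 and MUT3 cells. They were 0.47 for the mean of WT6 and WT10 minus MUT3, 0.64 for WT10 minus MUT3 and -0.35 for WT6 minus WT10, with adjusted p of 0.226, 0.273 and 0.266 by limma, where 22.9%, 5.58% and 12.9% of genes differed.

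**Figure D2:**
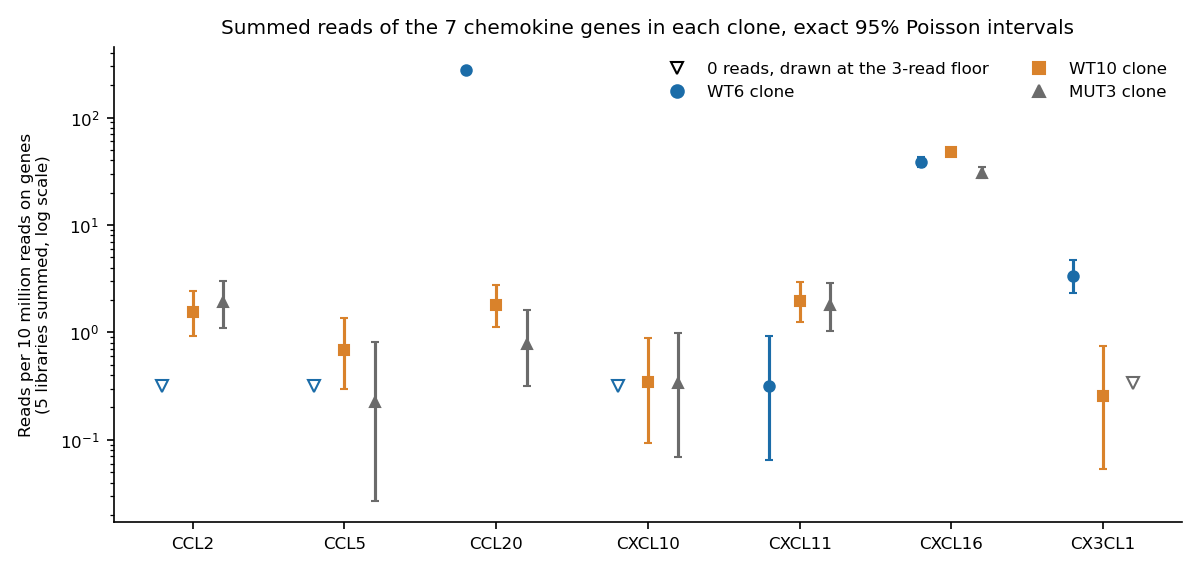
Reads of each gene per 10M reads on genes, summed over the 5 libraries of a clone (vertical axis, log scale), with exact 95% Poisson intervals and, where a clone had 0 reads, an open triangle at the floor of 3 reads. The symbols are to be compared between clones within a gene: CCL20 and CX3CL1 are highest in WT6, CCL2 and CXCL11 in WT10 and MUT3, and CXCL16 is of one order in all 3.

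The promoter of CCL20 is shown beside that of CXCL10 because the first gene was abundant in WT6 cells and the second had at most 4 reads in a clone. Both are the 250 bases before the RefSeq start on GRCh38.p14, 5′ to 3′ on the strand of the gene, with matches to either of a pair of motifs, on either strand, in capitals. The first is a loose form of the NF-kB site, GGG and CC with any 5 bases between them, and the second of the interferon response element, GAAA and GAAA with any 2 bases between.
CCL20 (chr2:227813592-227813841, plus strand): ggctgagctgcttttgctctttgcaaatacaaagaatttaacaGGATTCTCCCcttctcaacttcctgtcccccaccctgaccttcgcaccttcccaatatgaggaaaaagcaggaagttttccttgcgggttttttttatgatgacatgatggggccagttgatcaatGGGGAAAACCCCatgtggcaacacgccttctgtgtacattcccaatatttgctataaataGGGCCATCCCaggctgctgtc
CXCL10 (chr4:76023498-76023747, minus strand): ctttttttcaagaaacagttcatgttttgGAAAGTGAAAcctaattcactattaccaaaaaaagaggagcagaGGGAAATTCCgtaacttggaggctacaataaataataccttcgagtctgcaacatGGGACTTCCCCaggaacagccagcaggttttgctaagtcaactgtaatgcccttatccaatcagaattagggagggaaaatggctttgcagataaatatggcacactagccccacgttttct
CCL20 held 5 matches to the first motif, at -207, -81, -80, -79 and -21 from the start, of which the 3 around -80 overlap. CXCL10 held 3, at -177, -122 and -121, and 1 match to the second motif at -221. Over 35116 promoters of this length, 54.4% held the first motif and 3.02% the second, so a match to the first is ordinary. Promoters of 3 of the 7 genes were in the table.

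CXCL16 was the one gene of the 7 with an ample count in every clone. It lies at chr17:4636828-4643223 on the minus strand of hg19, and MED11 and ZMYND15 overlap it on the other strand. The study counted reads with default settings, and whether the libraries keep the strand is not given in the sources used here. Reads of these genes might therefore not be told apart. In WT6 cells CXCL16 had 51.5, 53.5, 61.4, 124 and 133 normalized counts at 0, 1, 2.5, 5 and 25 ng/ml. The libraries fall into a low set up to 2.5 ng/ml and a high set at 5 and 25 ng/ml. In WT10 cells it had 68.2, 77.2, 92.8, 79.1 and 124 normalized counts at the same doses. The WT10 library at 25 ng/ml was the highest of its clone and the one at 5 ng/ml, which was sequenced deepest, was below that at 2.5 ng/ml. In MUT3 cells it had 57.5, 44.4, 57.3, 55.1 and 73.3 normalized counts, with the highest again at 25 ng/ml.

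CXCL16 rose with the dose in WT6 cells, and its slopes in WT10 and MUT3 cells were positive but did not pass the test. The ratio of 25 ng/ml to untreated was 2.59 in WT6 (95% counting interval 1.82 to 3.73), 1.82 in WT10 (1.33 to 2.52) and 1.27 in MUT3 (0.866 to 1.89). In the limma fit of the 12644 genes with a mean of at least 10 in each clone, the slope was 0.32 ± 0.062 (SE) in WT6 cells, with an adjusted p of 0.000589. It was 0.17 ± 0.062 in WT10 cells, with an adjusted p of 0.0611 by limma. It was 0.10 ± 0.073 in MUT3 cells, with an adjusted p of 1.00 by limma and 0.171 unadjusted. Single libraries moved these slopes: in WT10 cells it was 0.10 without the library at 25 ng/ml, in MUT3 cells it was 0.17 without the untreated library and 0.014 without the one at 25 ng/ml, and in WT6 cells it was 0.50 without the one at 25 ng/ml. CXCL16 was the one gene of the 7 in this fit, and it was called in WT6 and not in WT10 or MUT3. Of all genes tested, 57.5% were called in WT6 cells (29.2% rising), 20.0% in WT10 cells (10.2% rising) and 0% in MUT3 cells, where 295 genes had an unadjusted p under 0.05 by limma, edgeR called 1 and DESeq2 called 8. The median slope over all genes tested lay near 0, at 0.0053 in WT6, -0.0027 in WT10 and 0.0033 in MUT3 cells.

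The slopes of CXCL16 did not differ between clones beyond their error. Averaged over WT6 and WT10, the slope was 0.14 above that of MUT3 (95% interval -0.04 to 0.33), with an adjusted p of 0.220 by limma, where 24.6% of genes differed. WT10 was 0.07 above MUT3 (-0.14 to 0.27), with an adjusted p of 0.732 by limma, where 5.62% of genes differed. WT6 was 0.15 above WT10 (-0.03 to 0.34), with an adjusted p of 0.225 by limma, where 14.4% differed. The upper ends of the first and the last interval exceed the WT6 slope itself.

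As with CCL20, the WT6 slope of CXCL16 came from the upper doses. Between 2.5 and 5 ng/ml CXCL16 rose 2.02-fold (95% interval 1.47 to 2.79), and between 0 and 2.5 ng/ml the ratio was 1.19 (0.814 to 1.76), although RBM47 rose 31.4-fold over that first step. Without the WT6 libraries at 5 and 25 ng/ml the WT6 slope was 0.14, with an adjusted p of 0.740 by limma, where 1.44% of genes were called. With the RBM47 count in place of the dose the WT6 slope of CXCL16 was 0.18 per unit of log2 RBM47, with an adjusted p of 0.254 by limma. Without the same WT6 libraries, the WT10 slope on the dose was 0.17 with an adjusted p of 0.00736 by limma, where 38.9% of genes were called. The clones share an estimate of spread in this fit, so the WT10 p-value also depends on scatter in WT6 cells. The WT10 slope passed as well with the length and GC trends removed, with an adjusted p of 0.0300, and with WT10 fitted alone, with 0.0230 (both limma), where 36.0% and 28.1% of genes were called. With those trends removed the WT6 slope was 0.25, with an adjusted p of 0.00189 by limma, where 58.5% of genes were called. CXCL16 has a transcript of 2324 nt, longer than 32.4% of genes.

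**Figure D3:**
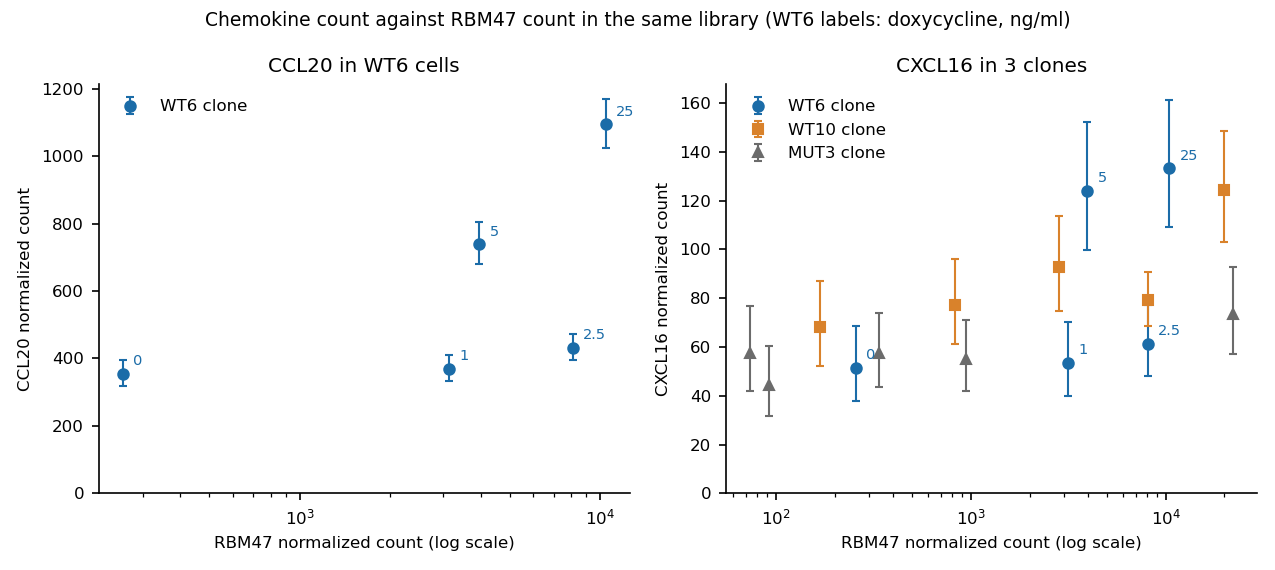
Normalized count of CCL20 in WT6 cells (left) and of CXCL16 in 3 clones (right) against the RBM47 count of the same library (log scale), with exact 95% Poisson intervals and the WT6 doses written beside their points. At 5 ng/ml WT6 cells held 740 CCL20 and 124 CXCL16 normalized counts, above the 432 and 61.4 at 2.5 ng/ml, with 3966 against 8094 of RBM47.

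Averaged over the 5 doses, the level of CXCL16 was highest in WT10 and lowest in MUT3 cells. Untreated, it was 51.5 normalized counts in WT6, 57.5 in MUT3 and 68.2 in WT10 cells, with overlapping counting intervals. The mean was 88.3 ± 22.0 normalized counts in WT10, 84.7 ± 40.4 in WT6 and 57.5 ± 10.3 in MUT3 (SD over the 5 doses, n = 5). WT10 was above MUT3 at 5 of 5 doses, with p = 0.0159 in a two-sided exact permutation test of the 5 libraries of each clone and 0.0476 after adjustment over the 3 pairs. With the libraries paired by dose the exact permutation p was 0.0625, the smallest that 5 pairs can give. WT6 and WT10 did not differ beyond this spread (exact permutation p = 0.643), nor did WT6 and MUT3 (exact permutation p = 0.270). The smallest p of the unpaired tests is 0.00794, and they compare libraries of single clones. They treat the 5 doses of a clone as repeats although the doses match across clones. A difference in level between WT10 and MUT3 cells is therefore not established. Per kb of transcript, CXCL16 stood at the 39.2nd, 40.5th and 35.2nd percentile of all genes with a read in WT6, WT10 and MUT3 cells, against the 84.3rd for CCL20 in WT6.

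Among 12643 other genes, those most like CXCL16 over the 15 libraries were CNFN (Pearson r = 0.959), TEKT4P2 (0.955) and MLX (0.955), on log2 values centred on each clone's mean. From 0 to 25 ng/ml MLX, a partner of glucose-sensing transcription factors, went from 3350 to 5201 normalized counts in WT6 cells, from 2183 to 2616 in WT10 and from 2345 to 2524 in MUT3. The 15 points share their size factors and the length trend of WT6, and the likeness is a description.

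**Figure D4:**
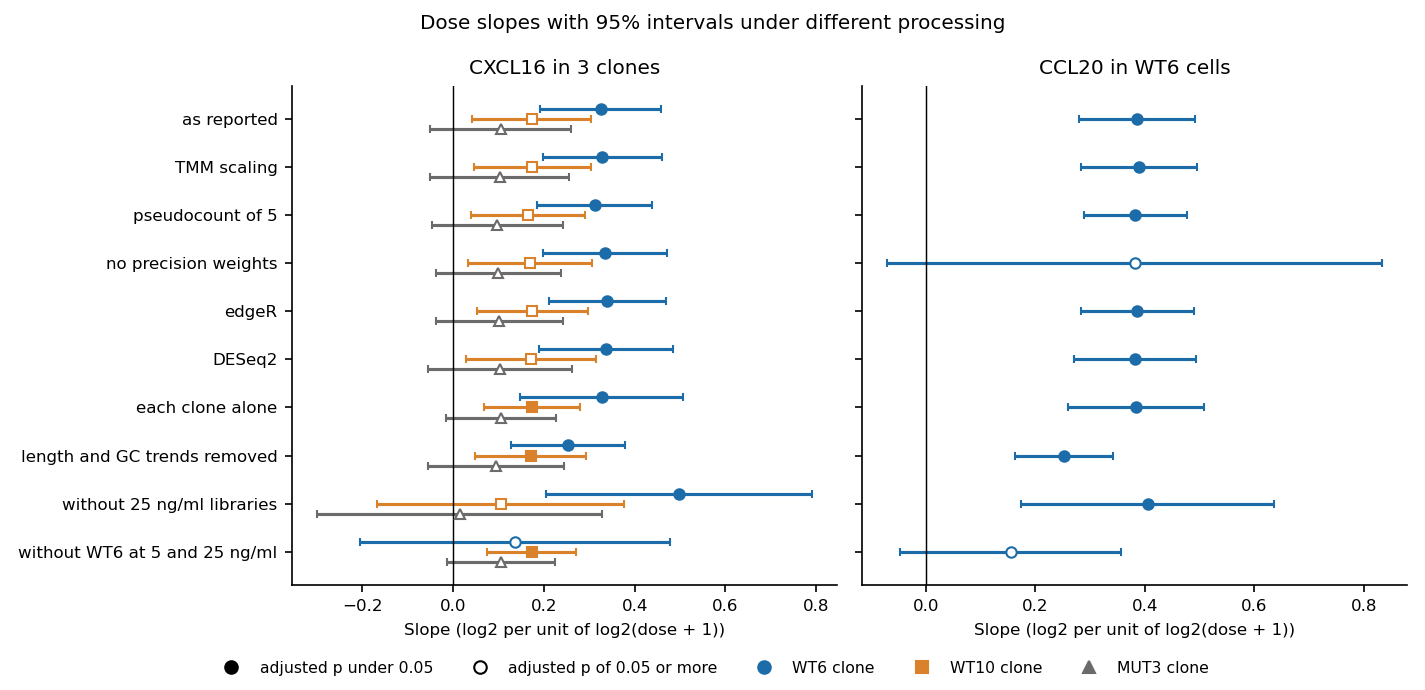
Dose slopes (log2 units per unit of log2(dose + 1)) with 95% intervals for CXCL16 in 3 clones and CCL20 in WT6 cells, 1 row per way of processing, with filled symbols for an adjusted p under 0.05. The WT6 slopes are filled in most rows and open without the WT6 libraries at 5 and 25 ng/ml, where they are 0.14 and 0.15.

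CX3CL1, the other membrane-bound chemokine, was detected in WT6 cells and hardly elsewhere. It lies at chr16:57406389-57418956 on the plus strand of hg19. WT6 cells had 5.48, 5.15, 5.97, 6.81 and 12.5 normalized counts from 0 to 25 ng/ml, from 5, 5, 7, 5 and 10 reads. All 5 libraries were above the floor and the one at 25 ng/ml was highest, but the ratio to untreated of 2.27 had a counting interval from 0.708 to 8.48. WT10 cells had 3 reads in 5 libraries, in those at 2.5 and 5 ng/ml, and MUT3 cells had 0. WT6 was 13.0-fold above WT10 in reads per 10M (95% interval 4.08 to 66.5) and at least 10.04-fold above MUT3, with the floor of 3 reads taken over the 5 MUT3 libraries.

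CCL2, the main attractant of monocytes, showed the opposite order of clones. It lies at chr17:32582293-32584227 on the plus strand of hg19. WT6 cells had 0 of 95116356 reads in 5 libraries, which by the floor of 3 reads allows up to 0.315 reads per 10M. WT10 cells had 1.08, 1.93, 2.99, 1.99 and 7.25 normalized counts from 0 to 25 ng/ml, from 1, 2, 3, 5 and 7 reads. MUT3 cells had 3.75, 3.33, 2.97, 4.59 and 3.14 normalized counts, from 3, 3, 3, 5 and 3 reads. The WT10 library at 25 ng/ml was highest, with a counting interval (2.92 to 14.9) that overlapped those of the other WT10 libraries. In reads per 10M WT10 was at least 4.91-fold and MUT3 at least 6.02-fold above WT6, and the ratio of WT10 to MUT3 was 0.816 (0.397 to 1.68).

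CCL5, which draws T cells and monocytes, was at or under the floor in all 15 libraries. It lies at chr17:34198495-34207797 on the minus strand of hg19. WT6 cells had 0 reads. WT10 cells had 8 reads in all, with at most 2.89 normalized counts, and MUT3 cells had 2, with at most 1.05.

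The interferon-induced pair CXCL10 and CXCL11 lie next to each other on the minus strand of chromosome 4 in hg19, at chr4:76942271-76944650 and chr4:76954835-76962568, and ART3 overlaps both on the other strand, with RPL36P8 over CXCL11 on the same strand. CXCL10 was at or under the floor in all 15 libraries, with 0 reads in WT6, 4 in WT10 and 3 in MUT3 cells. CXCL11 had 3 reads in WT6 cells, none above 1.25 normalized counts. WT10 cells had 0, 3.86, 0.997, 4.77 and 6.22 normalized counts of CXCL11 from 0 to 25 ng/ml, and MUT3 cells had 0, 2.22, 3.95, 5.51 and 4.19. The untreated library had 0 reads in both of these clones, and 3 of the 4 treated libraries were above the floor in each. The untreated intervals reach 3.99 in WT10 and 4.61 in MUT3 cells and overlap those of the treated libraries. Such overlap is not a test, and CXCL11 was too low to judge in both clones, so no conclusion on a rise is drawn. Reads per 10M were 6.27-fold higher in WT10 (95% interval 1.90 to 32.6) and 5.67-fold higher in MUT3 (1.62 to 30.3) than in WT6.

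With no filter on low counts all 7 genes entered the fit, and few more were called. In WT6 cells limma and edgeR each called CCL20 and CXCL16. In WT10 cells limma called CCL2, with a slope of 0.40 and an adjusted p of 0.0173, and edgeR called CCL20, with a slope of 1.02 and an adjusted p of 0.00950. Neither tool called a gene of the 7 in MUT3 cells, and these WT10 calls rest on 18 and 21 reads.

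Receptors of these chemokines were too low to judge. CCR1, CCR2, CCR3, CCR4, CCR6, CXCR3, CXCR6 and CX3CR1 each had a mean under 10 in every clone. CXCR6, the receptor of CXCL16, was the highest of these in 2 of 3 clones, with means of 1.97 in WT6, 3.50 in WT10 and 5.63 in MUT3 cells. CCR6, the receptor of CCL20, had means of 0.206, 2.22 and 2.95, and CX3CR1 of 0.219, 0 and 0.393. Of the 4 atypical receptors, which take up chemokines without signalling through G proteins, 0 reached 10 either.

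The proteases that release CXCL16 and CX3CL1 from the membrane were well expressed, and both fell with dose in WT6 cells. ADAM10 went from 1510 normalized counts untreated to 785 at 25 ng/ml in WT6 cells, with a slope of -0.24 ± 0.058 and an adjusted p of 0.00265 by limma. ADAM17 went from 713 to 478, with a slope of -0.15 ± 0.049 and an adjusted p of 0.0165 by limma. In the same fit 28.3% of all genes fell. The slope of ADAM17 was -0.14 with an adjusted p of 0.102 without the untreated WT6 library and -0.28 without the one at 25 ng/ml (limma). Neither passed the test in WT10 or MUT3 cells. With the length and GC trends removed the slopes were -0.12 for ADAM10 (adjusted p 0.0216) and -0.10 for ADAM17 (0.0674), and without the WT6 libraries at 5 and 25 ng/ml they were 0.034 and -0.033, with adjusted p of 0.861 and 0.868 (all limma). DPP4, which trims the ends of CXCL10, CXCL11 and CCL5, had means of 11.3 in WT6, 6.95 in WT10 and 3.61 in MUT3 cells.

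Of the 36 other chemokines in the table, 5 could be tested, and 4 of them rose in each wild type clone: CXCL1, CXCL2, CXCL3 and IL8 (CXCL8), which attract neutrophils. Of all genes tested 29.2% rose in WT6 and 10.2% in WT10 cells. In WT10 cells IL8 went from 266 to 4198 normalized counts between 0 and 25 ng/ml (slope 0.89, adjusted p 1.82e-06 by limma), and CXCL1 from 121 to 1798 (0.94, 1.01e-05). Over the same doses CXCL16 went from 68.2 to 124. In WT6 cells IL8 went from 142 to 1354 (0.75, 3.14e-06 by limma) and CXCL1 from 54.8 to 1041 (1.01, 4.68e-06). The slopes of CXCL2 were 0.36 in WT6 and 0.58 in WT10 cells, and those of CXCL3 were 0.21 and 0.35. Without the WT6 libraries at 5 and 25 ng/ml none of the 4 passed in WT6 cells (limma adjusted p from 0.296 to 0.936), and CXCL3 did not pass there with length and GC trends removed (slope 0.06, adjusted p 0.358). Without the WT10 library at 25 ng/ml the WT10 calls of CXCL1, CXCL2 and CXCL3 were lost, with slopes of 0.68, 0.39 and 0.20 and adjusted p of 0.134, 0.123 and 0.580 (limma). Without the WT6 library at 25 ng/ml CXCL2 (0.31, adjusted p 0.0626) and CXCL3 (0.27, 0.0971) missed the threshold in WT6 cells, as CXCL3 did without the untreated one (0.18, 0.0737). CCL28, the other gene tested, did not pass in any clone, and 0 of the 5 passed in MUT3 cells.

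Of 26 genes that induce these chemokines or carry the signal (NF-kB, interferon and IL-1 genes), 24 were tested. In WT6 cells 11 rose and 5 fell, beside 29.2% of all genes rising and 28.3% falling. In WT10 cells 8 rose and 1 fell, beside 10.2% rising and 9.83% falling, and in MUT3 cells 0 passed. The median slopes were 0.07, 0.06 and 0.03. The 6 with the smallest adjusted p in either wild type clone were IL1A, RELB, IL1B, IFNGR2, IRF9 and IRF7. IL1A, a cytokine upstream of NF-kB, went from 95.2 to 3193 normalized counts in WT10 cells (slope 1.16, adjusted p 1.82e-06 by limma) and from 26.3 to 496 in WT6 (0.79, 3.51e-05). IL1B went from 54.1 to 894 in WT10 (0.86, 3.41e-06 by limma) and from 28.5 to 103 in WT6 (0.43, 0.00242). RELB, a subunit of NF-kB, went from 284 to 855 in WT6 cells (0.35, 3.14e-06 by limma), and IFNGR2, a chain of the interferon gamma receptor, from 1181 to 3668 (0.37, 7.61e-06). IRF9 and IRF7, factors of the interferon response, had slopes of 0.40 and 0.31 in WT6 cells and did not pass in WT10 cells. Of the 6, IL1A and IFNGR2 passed in WT6 cells without its libraries at 5 and 25 ng/ml (adjusted p 0.0405 and 0.0313 by limma). Without the WT10 library at 25 ng/ml IL1B (0.96, adjusted p 0.0549), IFNGR2 (0.26, 0.183) and RELB (0.042, 0.727) missed the threshold in WT10 cells, as RELB did without the one at 1 ng/ml (0.085, 0.0836). Without the WT6 library at 25 ng/ml IL1B (0.44, adjusted p 0.153) and IRF9 (0.21, 0.0684) missed it in WT6 cells, and the slopes of IL1A and IRF7 were 1.39 and 0.18. CXCL10 and CXCL11, which these signals switch on in other cells, stayed at or near the floor at every dose in all 3 clones.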

How the data were processed

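Poly(A) RNA of 15 clone and dose conditions was sequenced as paired reads of 75 bases, 1 library each. The authors mapped reads to hg19 with STAR 2.3.0, counted them per gene with HTSeq 0.5.4 and normalized with DESeq. The deposited table holds this normalized signal, reads divided by a size factor, for 23368 genes. Taking the lowest nonzero value of a column as 1 read gave whole reads for 100% of values (within 0.01 reads). The counting used default settings. The annotation, and whether the libraries keep the strand, are not given in the sources used here. Reads in no gene made up 56.5% to 59.6% of a library's tallied reads, and the 5 tallies stayed out of all fits.

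The 7 genes and all lists were chosen with earlier results of these data known, and some genes of the lists are not reported here. Of the other lists, all genes passing in a clone are named where there are up to 6, otherwise the 6 with the smallest adjusted p in a wild type clone. For each clone a slope of log2(normalized count + 1) on log2(dose + 1) was fitted in limma 3.58.1 with vooma weights, over all 15 libraries (6 coefficients, 9 residual degrees of freedom), for 12644 genes with a mean of at least 10 in each clone. CCL20 was taken from the same fit of 13637 genes with a mean of at least 10 over all libraries. Calls have a Benjamini-Hochberg adjusted p under 0.05. With 1 library per condition, the p-values measure scatter around the dose lines, pooled over the clones fitted together. The p-value of a clone therefore also depends on scatter in the others. Alternatives used edgeR 4.0.16 and DESeq2 1.42.0 on the recovered reads (R 4.3.3). Intervals of counts are exact Poisson, and of ratios exact binomial, at 95%, and cover counting error only. Length and GC content came from GENCODE release 44 on hg19 for 92.0% of genes. The functions were tested on simulated data. Python 3.11.15 and scipy 1.17.1 were used.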

Additional observations from a re-analysis of the deposited data

Results flagged for a closer look

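Of the 7 chemokines, CXCL16 was tested in the main limma fit and CCL20 in the fit with the mean taken over all libraries. No difference between clones in the dose slope of CXCL16 passed the test. CCL20 was too low to judge in WT10 and MUT3 cells, so its slopes could not be compared between clones. The other 5 were too low to judge in every clone. By the test of the difference itself, 10 named genes around them did differ between clones. The mean wild type slope lay above the MUT3 slope for CXCL1 (0.92, adjusted p 0.000355), IL8 (0.74, 0.000355), IL1A (0.71, 0.00208), IL1B (0.51, 0.00382), IFNGR2 (0.37, 0.000727), CXCL2 (0.30, 0.0122), IRF9 (0.23, 0.00975), IRF7 (0.16, 0.0288) and RELB (0.15, 0.00667), where 24.6% of all genes differed (limma). The WT10 slope lay above the MUT3 slope for IL1A (0.89), CXCL1 (0.88), IL8 (0.81), IL1B (0.72), CXCL2 (0.41) and IFNGR2 (0.34), where 5.62% of all genes differed. The WT6 slope lay above the WT10 slope for IRF9 (0.29), RELB (0.26) and IRF7 (0.19) and below it for IL1B (-0.43) and ADAM10 (-0.29, adjusted p 0.0333 by limma), where 14.4% of all genes differed. These comparisons share libraries. The 10 genes were named because they had a slope in a clone of the same libraries. The shares over all genes are therefore not a fair background for them.

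Without the MUT3 library at 25 ng/ml, 0 of the 9 and 0 of the 6 differences from MUT3 passed (limma), with CXCL1 at 0.88 (adjusted p 0.0893) and CXCL2 at 0.26 (0.338) for the mean wild type slope. Without the WT10 library at 25 ng/ml 0 of the 6 and 5 of the 9 passed. Without the WT6 libraries at 5 and 25 ng/ml 4 of the 9 passed (CXCL2 was at 0.17, adjusted p 0.348), 6 of the 6 passed for WT10, and 0 of the 5 passed for WT6 minus WT10, where ADAM10 was at -0.0095 (adjusted p 0.993). With length and GC trends removed ADAM10 was at -0.16 (adjusted p 0.0685).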

How the results depend on the processing

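CXCL16 was the one gene counted as called in WT6 cells, and 2 were called, CCL20 beside it, with the mean of at least 10 taken over all libraries, with no filter, with each clone alone and with edgeR without a filter. The WT6 count was 0 with the RBM47 count as the dose and without the WT6 libraries at 5 and 25 ng/ml. In WT10 cells the count was 0 and became 1 with each clone alone, with the length and GC trends removed and without the WT6 libraries at 5 and 25 ng/ml (CXCL16), with the mean over all libraries and with edgeR without a filter (CCL20), and with limma without a filter (CCL2). With 1 library left out at a time the WT6 count was 1 to 1 and the WT10 count 0 to 1, with CXCL16 called in WT10 without the WT6 library at 5 ng/ml (adjusted p 0.0116) or at 25 ng/ml (0.0480). The counts in MUT3 and between clones stayed at 0 under every alternative that tested them on these genes. The WT6 minus WT10 slope of CXCL16 became -0.037 without the WT6 libraries at 5 and 25 ng/ml, and its WT10 minus MUT3 slope ranged from -5.68e-05 to 0.16 with 1 library left out. Without the same libraries the slope of ADAM10 in WT6 cells became 0.034, and the WT6 minus WT10 slopes of IRF7 and IRF9 became -0.069 and -0.11. The cause of these moves was not tested. Leaving out 1 library, the WT6 slope of CXCL16 ranged from 0.30 to 0.50 and that of CCL20 from 0.37 to 0.43, called in all 15 fits each. TMM scaling gave ratios of 25 ng/ml to untreated of 3.13 for CCL20 and 2.63 for CXCL16 in WT6 cells. The fit without WT6 at 5 and 25 ng/ml, edgeR without a filter, and the alternatives for CCL20 and for the genes that differ between clones were added after the data were seen. No paired analysis was possible because each condition has 1 library, so that replicate numbers pair none, and pairing by dose was added for the level of CXCL16 (WT10 against MUT3, exact permutation p 0.0625). Depth limits 17 of the 21 pairs of gene and clone, which were too low to judge. CCL20 and CCL2 in WT10 cells are among these pairs, so their calls there carry no weight.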

Other observations

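One more chemokine outside the 7 rose in WT10 cells but was too low in 2 clones for the main fit, and was picked out after its values were seen. CCL26 (eotaxin-3), a ligand of CCR3 on eosinophils, went from 9.74 normalized counts untreated to 192 at 25 ng/ml in WT10 cells. In the fit of genes with a mean of at least 10 over all libraries its WT10 slope was 1.18, and 1.14 with the length and GC trends removed. Its means were 9.96 in WT6, 47.6 in WT10 and 3.71 in MUT3 cells, so it entered that fit through WT10. The slopes are therefore given as a description, without a test. In WT6 cells it went from 3.29 to 23.7 and in MUT3 cells from 6.25 to 5.24.

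The 3′ UTR of CCL20, 473 nt long, holds 3 copies of ATTTA, a pentamer found in many short-lived transcripts, or 0.634 per 100 nt, more per length than 95.5% of 12472 genes, while 47.4% of them hold as many copies or more. That of CXCL16, 970 nt long, holds 1 copy, and 73.2% of genes hold at least 1 (0.103 per 100 nt, the 37.1st percentile). Binding of RBM47 to these transcripts was not analysed here.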
